A study of Rattus norvegicus with 4 samples.

Results

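Antiviral genes that type I interferon is known to switch on were followed in rat liver under inhalational anesthesia. The 10 genes were *Mx1*, *Mx2*, *Isg15*, *Ifit1*, *Ifit2*, *Ifit3*, *Oas1a*, *Oasl*, *Rsad2* and *Irf7*. Rows were taken by symbol, and each of the 10 was present among the 16999 gene symbols analysed. Each symbol had 1 deposited row, with the same position in every library.

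Type I interferons are secreted proteins released when a cell detects foreign or misplaced nucleic acid. They bind a receptor of the subunits Ifnar1 and Ifnar2, and the attached kinases set off a signalling complex that includes Stat2 and Irf9 and binds interferon-stimulated response elements in the promoters of antiviral genes. A low tonic level of the same signal keeps many of these genes expressed in uninfected tissue, and in liver both hepatocytes and resident macrophages, the Kupffer cells, respond to it.

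The series held 4 RNA-seq libraries of total RNA from liver of wild type rats, with 1 library in each group. In the sevoflurane 0 h and desflurane 0 h groups, the control rats inhaled the agent only until they lost consciousness, and in the sevoflurane 6 h and desflurane 6 h groups the inhalation lasted 6 h. The inhaled dose was 4.5% for sevoflurane and 6% for desflurane, so the doses of the agents differ and every control had also met its agent. The labels used here give neither strain, sex nor age. Controls and anesthetized rats were killed 6 h apart in the day, so that anesthesia, its duration and the time of day cannot be told apart in any comparison of 6 h with 0 h. With 1 library per group there is no replicate error for a single agent, and a difference between 2 libraries compares those libraries, not the conditions.

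Levels are given as TPM, a transcript abundance that is scaled for transcript length and library size. Depth, taken from the deposited coverage, was between 3.50 and 5.57 Gb of aligned bases, with sevoflurane 0 h the shallowest, and a gene at 1 TPM was covered between 2.36 and 3.64 times per base. As the tables lack read counts, no counting interval is attached to a value. Genes that averaged 1 TPM or more over the libraries, 9201 in number, are called expressed genes below. The liver label was checked against 8 hepatocyte markers, *Alb* among them, whose summed level was between 97812 and 109391 TPM.

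In the rn6 build used for the deposited tables, the members lay on 5 chromosomes. *Ifit2* (chr1:252894663-252900727), *Ifit3* (chr1:252906234-252911375) and *Ifit1* (chr1:252944104-252946170) stood side by side on the plus strand, with gaps of 5506 and 32728 bp between them. *Irf7* lay far from them on the same chromosome (chr1:214249388-214252455, minus strand). *Mx1* (chr11:37891150-37916690, minus strand) and *Mx2* (chr11:38035513-38059579, plus strand) were 118822 bp apart. *Oas1a* (chr12:41200729-41211389, plus strand) and *Oasl* (chr12:47444138-47456160, minus strand) shared a chromosome, while *Isg15* (chr5:173624902-173626189, minus strand) and *Rsad2* (chr6:45655947-45669083, minus strand) were alone on theirs.

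To show the element through which these genes are known to be read, RefSeq promoter windows of the GRCr8 build, from 250 bases before to 50 bases after each gene's start, were searched on both strands for the core of the interferon-stimulated response element, which reads GAAA, any pair of bases and GAAA. Windows were present for 6 of the 10 members (*Irf7*, *Ifit3*, *Rsad2*, *Mx1*, *Oas1a* and *Oasl*). The core was found in 4 of these 6, against 3.77% of all 27457 promoter windows and 3.13% of the 7404 windows of expressed genes. The 4 members are printed below 5′ to 3′ on the strand of the gene, with the match in capitals, and TTTC, any pair of bases and TTTC is the same core read on the other strand.
Irf7 (chr1:205800073-205800102, minus strand): acagtttaggTTTCATTTTCccgagacgca
Ifit3 (chr1:241527272-241527301, plus strand): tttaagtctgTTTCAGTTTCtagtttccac
Rsad2 (chr6:48788248-48788277, minus strand): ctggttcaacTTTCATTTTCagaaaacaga
Oas1a (chr12:41330421-41330450, plus strand): tcgggaaatgGAAACTGAAAatcttgttcc
Counted from the gene's start, the first base of the match was at -69 in *Irf7*, -44 in *Ifit3*, -147 in *Rsad2* and -35 in *Oas1a*. *Oas1a* had another match, GAAATGGAAA, whose first base was at -41 and which overlapped the one printed. A match describes the letters of the window and was not tested for binding, and the members that hold one did not share a direction in the data below (*Irf7* and, as deposited, *Oas1a* were lower in both 6 h libraries than in both 0 h libraries, while *Ifit3* and *Rsad2* were not).

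Most of the antiviral genes were lower after 6 h of anesthesia with either agent, and over both agents together the changes of *Mx2* and *Mx1* were the largest of the 10. In counts, 7 of the 10 members (*Mx1*, *Mx2*, *Isg15*, *Ifit2*, *Oas1a*, *Oasl* and *Irf7*) had both 6 h libraries below both 0 h libraries, and 0 had both above, although *Oas1a* lost this order once libraries were scaled by the median of their gene ratios. Of the 9201 expressed genes, 27.9% had both 6 h libraries below both controls, and 22.8% had both above. The 10 members together summed to 108 TPM in sevoflurane 0 h, 55.7 in sevoflurane 6 h, 88.6 in desflurane 0 h and 59.6 in desflurane 6 h. In a piece of whole liver, fewer cells of a type and less RNA per cell cannot be told apart.

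**Figure D1:**
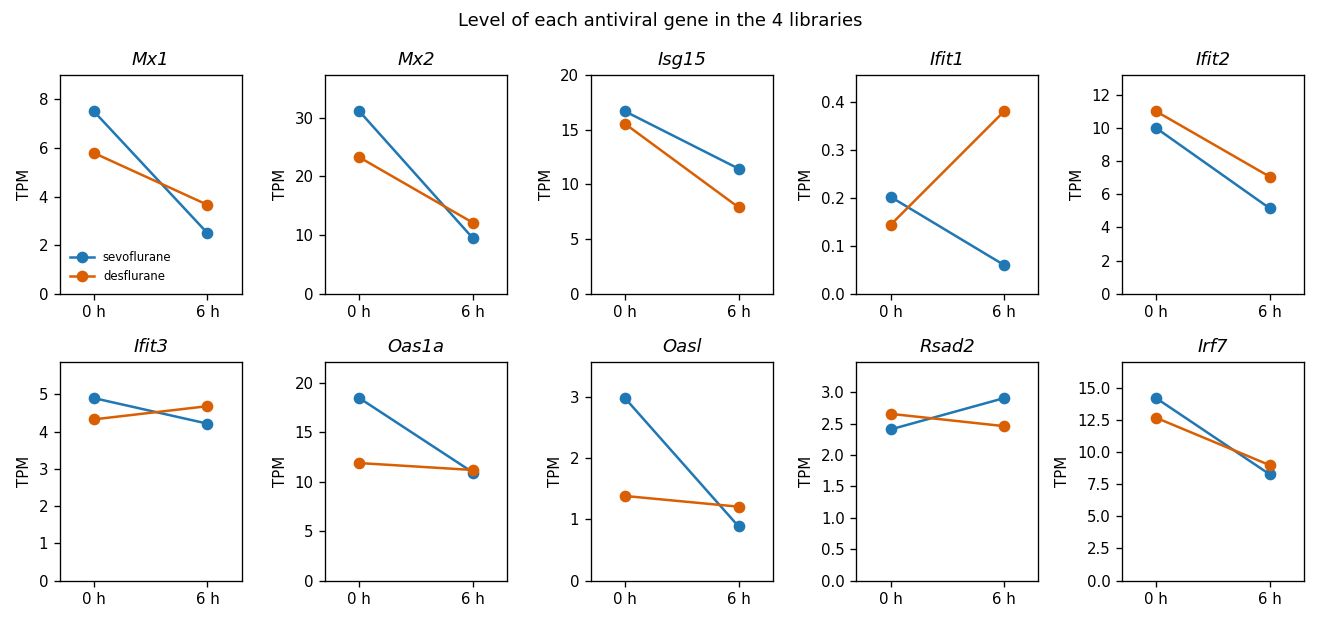
Level (TPM, linear axis from 0, its own scale in each panel) of the 10 antiviral genes in the 4 libraries, with 0 h and 6 h of the same agent joined by a line, sevoflurane in blue and desflurane in orange, 1 library per point. *Mx2* sat at 31.1 and 23.2 TPM at 0 h and at 9.43 and 12.1 at 6 h, whereas *Ifit3* and *Rsad2* crossed and *Ifit1* stayed under 0.4 TPM throughout.

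Mx1 and Mx2 are dynamin-like GTPases that interferon induces against RNA viruses. *Mx2* was at 31.1 TPM in sevoflurane 0 h, 9.43 in sevoflurane 6 h, 23.2 in desflurane 0 h and 12.1 in desflurane 6 h. *Mx1* was at 7.51, 2.49, 5.80 and 3.66 TPM in the same order. Both genes were therefore lower at 6 h than in either control, and for both the sevoflurane 6 h library was the lowest of the 4. *Mx2* was 3.30-fold lower at 6 h with sevoflurane and 1.92-fold lower with desflurane, and *Mx1* was 3.01-fold and 1.58-fold lower. On the log2(TPM + 1) scale, which understates the change of low genes, these were changes of -1.62 and -0.89 for *Mx2* and of -1.28 and -0.54 for *Mx1*.

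Isg15 is a ubiquitin-like protein that is attached to other proteins and is also secreted. Its gene was at 16.7 TPM in sevoflurane 0 h, 11.4 in sevoflurane 6 h, 15.5 in desflurane 0 h and 7.90 in desflurane 6 h. The lower 6 h value of *Isg15* belonged to desflurane, with a 1.97-fold lowering against 1.46-fold with sevoflurane. The controls were close, 1.07-fold apart, and so both 6 h libraries lay below them whichever control was taken.

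Oas1a belongs to the 2′-5′-oligoadenylate synthetases, which sense double-stranded RNA, and Oasl is a related protein that carries ubiquitin-like domains. *Oas1a* was at 18.4 TPM in sevoflurane 0 h, 10.9 in sevoflurane 6 h, 11.9 in desflurane 0 h and 11.2 in desflurane 6 h. *Oasl* was at 2.98, 0.88, 1.38 and 1.21 TPM in the same order. For both genes 1 library, sevoflurane 0 h, stood above the other 3. *Oas1a* was 1.69-fold lower at 6 h with sevoflurane and 1.06-fold lower with desflurane, and *Oasl* was 3.37-fold lower with sevoflurane and 1.14-fold lower with desflurane. *Oasl* had a mean coverage between 3.02 and 7.02 reads per base, so its ratios rest on low coverage. Rat carries a cluster of close *Oas1* copies, and the assembled locus over *Oas1a* ran to between 55903 and 55935 bp, beyond the 10661 bp of the gene, so reads may be divided among copies there.

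The Ifit proteins bind viral RNA that lacks the host's cap modification, and their genes are neighbours in this genome. *Ifit2* was at 10.01 TPM in sevoflurane 0 h, 5.16 in sevoflurane 6 h, 11.02 in desflurane 0 h and 7.07 in desflurane 6 h, which is 1.94-fold lower at 6 h with sevoflurane and 1.56-fold lower with desflurane. *Ifit3*, which starts 5506 bp beyond the end of *Ifit2*, was at 4.90, 4.21, 4.33 and 4.68 TPM. The 4 values of *Ifit3* overlapped between 0 h and 6 h, with ratios of 1.16 and 1.08, in opposite directions for the agents. *Ifit1* was at 0.20, 0.06, 0.14 and 0.38 TPM, with a mean coverage between 0.20 and 1.38 reads per base, and no direction was read from it.

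Rsad2, also called viperin, is an enzyme that makes a chain-terminating nucleotide. *Rsad2* was at 2.41 TPM in sevoflurane 0 h, 2.91 in sevoflurane 6 h, 2.65 in desflurane 0 h and 2.46 in desflurane 6 h, and the times overlapped. Irf7 is the transcription factor that amplifies interferon production. *Irf7* was at 14.2, 8.25, 12.6 and 8.97 TPM in the same order, 1.72-fold lower at 6 h with sevoflurane and 1.41-fold lower with desflurane. In the deposited rows of both 6 h libraries, *Irf7* lay inside the span of 444755 bp listed for *Slc25a22* on the same strand, so reads of the 2 genes may have been divided between them there. The locus that the assembler built from the reads at *Irf7* gave log2 changes of -0.70 and -0.44, beside -0.71 and -0.45 for the named gene.

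To count changes, a gene was called lower or higher in 1 library than in another when the levels differed by a ratio above 2 and the larger exceeded 2 TPM. By this rule, with sevoflurane 3 members (*Mx1*, *Mx2* and *Oasl*) of 9 above the minimum were called lower and 0 higher. The background in that comparison was 3.71% of 8270 genes called lower and 5.04% called higher. With desflurane 0 of 8 members were called in either direction, where 5.55% of 8372 genes were called lower and 4.1% higher, and the nearest members were *Isg15* and *Mx2* at ratios of 1.97 and 1.92. The median change of the 10 members was -0.71 (log2 scale) with sevoflurane and -0.28 with desflurane. Over all expressed genes, these medians were 0.05 and -0.10. A lower value at 6 h, of any size, was seen in 8 of the 9 expressed members with each agent (6 of 9 with desflurane after the same scaling), where 44.5% of all expressed genes were lower with sevoflurane and 61.7% with desflurane.

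The difference between the agents was examined in the 2 controls and in the 2 anesthetized livers apart. Between the 6 h libraries 0 of 8 members were called, where 2.21% of 8229 genes were called higher in desflurane and 1.77% lower, and among the 9 expressed members the ratios ran from 1.02 (*Oas1a*) to 1.47 (*Mx1*). Between the 0 h libraries 1 of 9 members, *Oasl*, was called lower in desflurane (2.16-fold), where 0.799% of 8263 genes were called lower and 1.96% higher. *Oas1a* was also 1.55-fold lower in the desflurane control, and the remaining expressed members were at most 1.34-fold apart. For *Oas1a* and *Oasl*, then, the controls lay farther apart than the 6 h libraries did. The same held by a small margin for *Mx2* (1.34-fold against 1.28-fold), *Irf7* (1.12-fold against 1.09-fold) and *Ifit3* (1.13-fold against 1.11-fold). For *Mx1*, *Isg15*, *Ifit2* and *Rsad2* the 6 h libraries lay farther apart.

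Each 6 h library was also set against the control of the other agent. *Mx2* was 2.46-fold lower in sevoflurane 6 h than in the desflurane control, and 2.57-fold lower in desflurane 6 h than in the sevoflurane control. *Mx1* was 2.32-fold and 2.05-fold lower in these crossed comparisons. Both *Mx* genes were thus past the ratio of 2 against either control in sevoflurane 6 h, and against the sevoflurane control in desflurane 6 h. *Oasl*, by contrast, was 1.56-fold lower in sevoflurane 6 h than in the desflurane control, so its call with sevoflurane rests on the sevoflurane 0 h library. Against the other control, 3 of 8 members above the minimum (*Mx1*, *Mx2* and *Ifit2*) were called lower in sevoflurane 6 h. In desflurane 6 h 4 of 9 (*Mx1*, *Mx2*, *Isg15* and *Oasl*) were. The share of all genes called was not computed for these crossed comparisons, so the counts have no background.

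**Figure D2:**
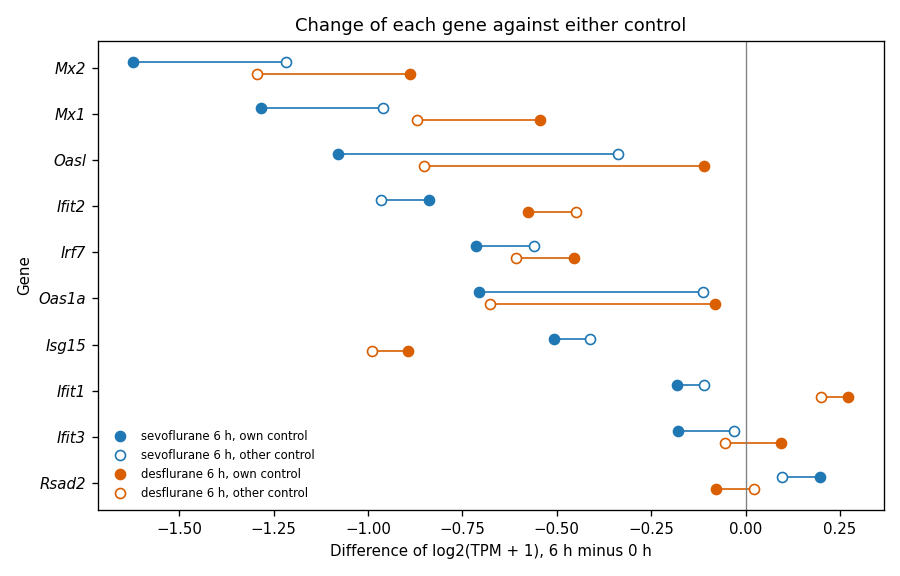
Difference of log2(TPM + 1), 6 h minus 0 h, of the 10 antiviral genes with sevoflurane (blue) and desflurane (orange), against the control of the same agent (filled) and of the other agent (open), 1 library on each side of every difference. *Mx2* lay between -0.89 and -1.62 in its 4 comparisons, and the filled and open symbols of *Oasl* and *Oas1a* lay far apart.

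To use the 4 libraries together, 6 h was compared with 0 h over both agents, with agent as a block, by limma (two-sided, eBayes with trend, Benjamini-Hochberg adjustment over the 8024 genes that averaged 2 TPM or more). This fit has 1 residual degree of freedom, and its error is borrowed largely from the other genes. Of the 8 members tested, 2 had an adjusted p under 0.05, where 8.62% of all genes tested did, and 5 had an unadjusted p under 0.05, where 19.9% of all genes did. *Mx2* changed by -1.26 ± 0.21 (log2, SE; 2 libraries per time, lower in both agents; limma adjusted p = 0.00218). *Mx1* changed by -0.91 ± 0.25 (limma adjusted p = 0.0442). *Isg15* (-0.70, limma adjusted p = 0.0540), *Ifit2* (-0.71, limma adjusted p = 0.0697) and *Irf7* (-0.58, limma adjusted p = 0.118) were lower with both agents and missed the threshold, as did *Oas1a* (-0.39, limma adjusted p = 0.347). *Rsad2* (0.06) and *Ifit3* (-0.04) were near 0, with limma adjusted p-values of 0.941 and 0.959. The call of *Mx2* was lost without both the sevoflurane 0 h library and the agent term (limma adjusted p = 0.0904), while without the agent term alone it was held (limma adjusted p = 0.0108), and without the filter on low genes (limma adjusted p = 0.167), with a range over the alternatives from 0.00455 to 0.167. The call of *Mx1* was lost in 8 of 9 alternatives, among them the fit without the agent term (limma adjusted p = 0.0552), with a range from 0.0332 to 0.319. Fits on 3 libraries leave no room for the agent term, and without that term and without sevoflurane 0 h, sevoflurane 6 h or desflurane 0 h the limma adjusted p of *Mx1* was 0.319, 0.134 or 0.115.

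The rest of the pathway was read from lists of ligands, receptor and signalling genes, sensors and adaptors, inhibitors and effectors, of which 76 of 98 genes were found. With sevoflurane 7 of 54 pathway genes above the minimum were called lower and 0 higher, where 3.71% of all genes were called lower and 5.04% higher. With desflurane 7 of 54 were called lower and 0 higher (5 lower and 1 higher after scaling by the median of gene ratios), where 5.55% of all genes were called lower and 4.1% higher. Among the 58 expressed pathway genes, 34 had both 6 h libraries below both controls and 5 had both above, where the shares of all genes were 27.9% and 22.8%. In the limma fit 8 of 51 pathway genes had an adjusted p under 0.05, all 8 of them lower at 6 h, where 8.62% of all genes passed in either direction.

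Ligand genes were at or near 0, with 5 of 11 found. *Ifna1*, *Ifna2*, *Ifna4* and *Ifnb1* were listed at 0 in all 4 libraries, and *Ifnk* was at most at 0.70 TPM. Among the receptor and signalling genes the direction was mixed. *Stat2*, a transcription factor of the pathway, was at 32.4 TPM in sevoflurane 0 h, 50.6 in sevoflurane 6 h, 34.1 in desflurane 0 h and 41.9 in desflurane 6 h, higher in both 6 h libraries, and missed the threshold (0.46, limma adjusted p = 0.123). *Irf9*, the DNA-binding subunit of the complex, was at 14.8, 13.5, 20.3 and 10.7 TPM, and the receptor chain *Ifnar1* was at 11.3, 16.4, 12.4 and 15.0 TPM. The other chain, *Ifnar2*, was not analysed here. The 6 genes of the list had a median change of 0.06 with sevoflurane and -0.34 with desflurane.

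*Irf1*, a transcription factor induced by both types of interferon, was the sensor and adaptor gene with the deepest change. It was at 19.4 TPM in sevoflurane 0 h, 4.24 in sevoflurane 6 h, 26.0 in desflurane 0 h and 4.36 in desflurane 6 h, with no overlap between the times, and it was called lower with both agents (-2.15 ± 0.21, limma adjusted p = 3.33e-05). Other sensors did not pass the rule in either comparison, and 6 of the 13 expressed ones, *Irf1* included, had both 6 h libraries below both controls. The median change over those 13 was -0.17 with sevoflurane and -0.21 with desflurane. Among inhibitors, *Usp18*, the protease that removes Isg15 from its targets and blocks the receptor, was at 16.3, 10.5, 13.5 and 9.91 TPM in the same order of libraries and was not called. The 6 expressed inhibitors had a median change of 0.23 with sevoflurane and 0.07 with desflurane, and 0 inhibitors were called with either agent.

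Effectors are the genes that act on the virus or its host cell, as most of the 10 members do. Of the 33 expressed effectors, 23 had both 6 h libraries below both controls and 1 had both above. With sevoflurane 5 of 31 effectors above the minimum were called lower (3.71% of all genes), with desflurane 6 of 30 (5.55% of all genes), and 0 were called higher. The median change of the 33 was -0.46 with sevoflurane and -0.37 with desflurane. *Helz2*, a helicase-domain coactivator, was called with both agents and was at 12.0, 4.12, 9.43 and 2.83 TPM (-1.39 ± 0.22, limma adjusted p = 0.00159). *Rtp4*, a chaperone for membrane receptors that interferon also induces, was at 14.1, 4.11, 10.6 and 6.97 TPM and was called with sevoflurane, as was *Samhd1*, the deoxynucleotide hydrolase, at 3.15, 0.95, 2.09 and 1.21 TPM. *Trim21*, an antibody receptor of the cytosol, at 12.2, 8.11, 14.2 and 5.61 TPM, and *Parp14*, an ADP-ribosyltransferase, at 35.0, 26.6, 38.8 and 14.1 TPM, were called with desflurane. In each of these 5 effectors the times did not overlap.

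The response-element core was held by 21 of 39 effector promoter windows (53.8%), 2 of 13 sensor and adaptor windows, 2 of 6 inhibitor windows and 0 of 4 receptor and signalling windows. Of the ligand windows 4 of 9 held it, though the ligands analysed were at or near 0 TPM. The next windows are from some of the called genes, each with a match. Further called genes that are not printed held a match as well, and for some called genes no match was listed. *Irf1* had no response-element core in its window but held TTCNNNGAA, the core of the gamma-activated site. That core was in 8.68% of all windows and in 1 of the 6 members' windows (*Oas1a*).
Irf1 (chr10:38417783-38417811, plus strand): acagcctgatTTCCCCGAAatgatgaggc
Parp14 (chr11:78408048-78408077, plus strand): tccaggaaatGAAAGTGAAAgaagtaagtt
Trim21 (chr1:166399372-166399399, minus strand): cctctgagagGAAACTGAAAgtgaaatt
The capitals mark the gamma-activated site core in *Irf1*, whose first base was at -142 from the start, and the response-element core in *Parp14* and *Trim21*, whose first base was at -76 and -18. *Trim21* held another, overlapping match at -12, and *Parp14* also held TTCNNNGAA at -87. Of the other called effectors named above, *Samhd1* held only TTCNNNGAA, at -153. No match to either core was listed for *Helz2*, called with both agents, or for *Rtp4*.

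**Figure D3:**
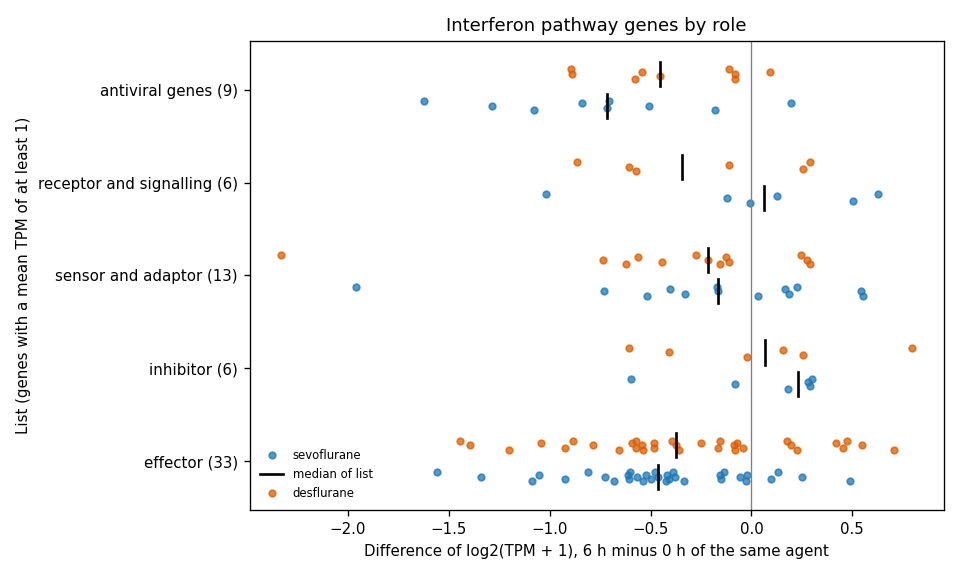
Difference of log2(TPM + 1), 6 h minus 0 h of the same agent, for the expressed genes of the antiviral list and 4 pathway lists, with 1 point per gene (sevoflurane blue, desflurane orange) and a black bar at the median of each list and agent. The 9 antiviral genes had medians of -0.71 and -0.45 and the 33 effectors of -0.46 and -0.37, while the 6 inhibitors had medians of 0.23 and 0.07.

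Outside all lists, the genes whose profile over the 4 libraries was most like the mean profile of the 9 expressed members were *Cxcl12*, *Hmgn3*, *Ift27*, *Gga2* and *Lrig2*. Likeness was the Euclidean distance between centred log2(TPM + 1) profiles, among 7915 candidate genes. *Cxcl12*, a chemokine that holds leukocytes in tissue, was nearest at a distance of 0.029, at 67.7 and 40.1 TPM in 0 h and 6 h of sevoflurane and at 58.0 and 44.2 TPM in those of desflurane. *Hmgn3*, a nucleosome-binding protein, followed at 8.37, 4.62, 7.12 and 5.19 TPM. With 4 libraries, many genes can come this close.

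Markers of the cells that a piece of liver can hold were summed in the same libraries. For Kupffer cells (11 of 12 markers found, led by *Clec4f*, *C1qa* and *Cd5l*) the sums were 608 and 513 TPM in 0 h and 6 h of sevoflurane and 570 and 673 TPM in those of desflurane. Of these 11 markers 10 were lower at 6 h with sevoflurane, where 44.5% of expressed genes were, and 0 with desflurane, where 61.7% were. With desflurane all 11 were higher, by ratios from 1.02 (*C1qa*) to 1.59, while 8 of the 10 members were lower (6 after scaling). By the rule, 0 of the 11 were called with either agent. For T and NK cells (12 of 12 found) the sums were 26.9, 16.8, 20.3 and 18.0 TPM, and 4 of 6 markers above the minimum were called lower with sevoflurane, where 3.71% of all genes were, and 2 of 4 with desflurane, where 5.55% were. Between the controls 2 of 6, *Nkg7* (3.0-fold) and *Prf1* (2.3-fold), were called lower in desflurane, where 0.799% of all genes were. For these genes sevoflurane 6 h and the desflurane control were only 1.07-fold and 1.03-fold apart. Their calls with sevoflurane thus rest on the sevoflurane 0 h library. Counting any size of change, 8 of the 12 markers were lower at 6 h with sevoflurane and 4 higher, whereas desflurane gave 5 lower and 7 higher. *Cd4*, the most abundant of them and a large part of each sum, was at 7.35, 7.39, 5.71 and 7.99 TPM. It was higher in both 6 h libraries than in both controls, but only by a ratio of 1.01 with sevoflurane. *Klrk1*, an activating receptor of NK cells, was at 3.81, 1.28, 3.34 and 0.91 TPM, and *Cd8a* was at 2.24, 1.08, 3.08 and 0.60 TPM. Both of these were called lower with each agent. *Cd3e* was listed at 0 in both controls and was only at 0.06 and 0.03 TPM in the 6 h libraries. The T and NK cell sum and the antiviral sum both were highest in sevoflurane 0 h and lower in both 6 h libraries. The part of Kupffer cells, T cells and NK cells in the result was not tested.

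B cell markers (4 of 5 found) summed to 0.95, 0.63, 1.24 and 0.31 TPM in the same order of libraries. With sevoflurane 2 of them were lower at 6 h and 1 higher, and with desflurane 3 were lower and 1 higher. At these low levels no direction was read from them. Neutrophil markers summed to 2.26, 3.94, 3.22 and 1.85 TPM with *Mpo* and *Elane* listed at 0, higher at 6 h with sevoflurane and lower with desflurane, and plasmacytoid dendritic cell markers summed to between 2.36 and 4.09 with *Cox6a2* listed at 0. Sinusoidal endothelial markers summed to between 54.8 and 67.8 TPM, stellate cell markers to between 27.6 and 32.7 and cholangiocyte markers to between 6.90 and 8.61. Pancreatic acinar markers summed to between 25.3 and 31.6 TPM, nearly all of it *Cela1* (between 23.9 and 29.7 TPM), with *Prss1* and *Pnlip* listed at 0. Red blood cell genes summed to 471, 1259, 757 and 1399 TPM in the usual order of libraries, and all 5 of them were higher in both 6 h libraries than in both controls. Clock genes of the late light phase, led by *Dbp*, were at a summed 11.5 and 24.9 TPM at 0 h and 193 and 149 at 6 h, with 9 of 9 higher in both 6 h libraries. Clock genes that peak around lights on, with *Arntl* among them, summed to 55.4 and 45.2 TPM at 0 h and 15.3 and 27.2 at 6 h. The sum thus had the same direction as that of the antiviral genes, and *Arntl* was at 22.6, 0.43, 17.6 and 2.14 TPM. Of the 4 expressed genes of this list 2 had both 6 h libraries below both controls, where 27.9% of expressed genes did. *Nfil3*, at 17.7, 7.66, 15.2 and 18.0 TPM, was higher at 6 h with desflurane. *Dbp* itself was at 0.40, 87.9, 1.92 and 44.8 TPM, and the part of blood content and of time of day in the antiviral genes' lower levels was not tested.

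**Figure D4:**
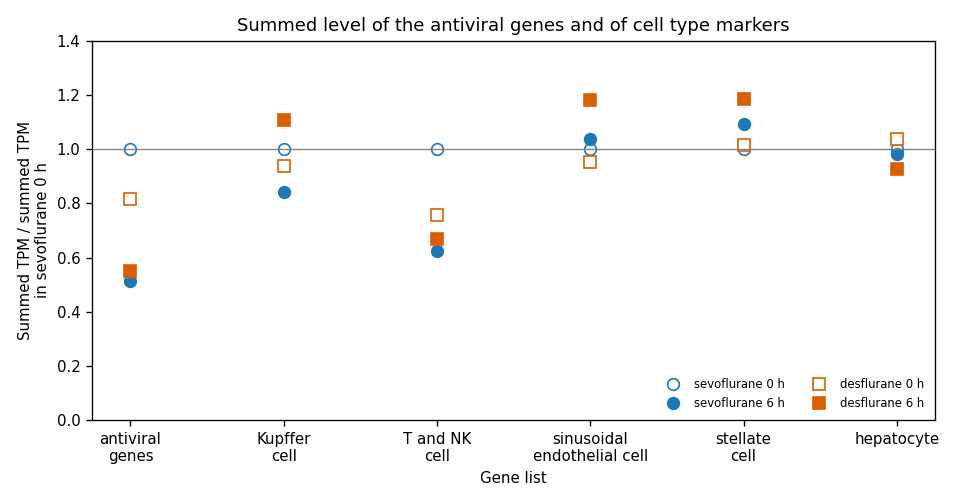
Summed TPM of the antiviral genes and of 5 marker lists in each library, divided by the sum in sevoflurane 0 h, with open symbols for 0 h, filled for 6 h, circles for sevoflurane and squares for desflurane. The antiviral genes were at 0.514 and 0.550 in the 6 h libraries and the T and NK cell markers at 0.626 and 0.670, whereas Kupffer cell markers were at 0.843 and 1.11. In desflurane 0 h the antiviral genes were at 0.818, the T and NK cell markers at 0.755 and the Kupffer cell markers at 0.937.

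Scaling each library by the median of its gene ratios moved the median change of all genes by -0.05 with sevoflurane and by 0.10 with desflurane. After it, the changes of *Mx2* were -1.68 and -0.78 and those of *Mx1* were -1.33 and -0.45. *Oas1a* and *Rsad2* turned to 0.02 and 0.003 with desflurane, so that 6 in place of 8 of the 10 members were lower with that agent, and 6 in place of 7 had both 6 h libraries below both controls (26.2% of all genes).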

How the data were processed

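Total RNA of 4 rat livers was sequenced from stranded, ribosome-depleted libraries. The submitters' processing notes name HISAT2, SAMtools, StringTie and the build rn6, without versions. The authors deposited 1 gene abundance table per library with coverage, FPKM and TPM. In the deposited TPM and FPKM columns, named genes add between 766045 and 789239 TPM to the 1000000 of assembled loci, so they were handled as a score, a TPM whose column exceeds its usual total. The deposited coverage is a signal, the mean depth per base, not scaled for library size.

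Rows of a symbol were summed, rows with a span of at most 200 bp were dropped, and 31 unlisted values were taken as 0. Calls, medians and the limma fit, with a pseudocount of 1, are as given with the results. Genes were named by a rule: all members, up to 5 called genes per pathway list, 7 genes of the receptor pathway (1 is not reported here), the 5 genes of most like profile and up to 3 markers per list. *Cd3e*, *Cd8a*, *Ncr1*, *Nkg7*, *Prf1*, *Mpo*, *Elane*, *Cox6a2*, *Prss1*, *Pnlip*, *Slc25a22* and the ligands were named after their values were seen. Members and lists were chosen with earlier results of these data known. Promoter windows are from RefSeq (GRCr8). The programs were tested on simulated data. Python 3.11.15, pandas 2.3.3, numpy 2.4.6, matplotlib 3.10.9, R 4.3.3 and limma 3.58.1 were used. Alternatives covered the ratio, TPM minimum, pseudocount, scaling, filter, control, model terms, each library left out and, added after the data were seen, FPKM and assembled loci.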

Additional observations from a re-analysis of the deposited data

Results flagged for a closer look

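Changes of 3 members had opposite signs with the agents, each with 1 library on either side. *Ifit1* (log2 scale) changed by -0.18 with the former agent, sevoflurane, and by 0.27 with the latter, desflurane, with all its values under 0.4 TPM. *Ifit3* changed by -0.18 and 0.093. *Rsad2* changed by 0.20 and -0.079. None of these differences between agents was tested, since no agent had a replicate.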

How the results depend on the processing

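With 1 library per group, counts depend on the ratio that calls a gene. At a ratio of 1.5, 6 of 9 members were called with sevoflurane, 4 of 8 with desflurane and 2 of 9 between controls. Pathway genes called were 19 of 54 (17 lower) with sevoflurane and 25 of 54 (22 lower) with desflurane. At a ratio of 3, 3 members were still called with sevoflurane, 0 between controls, and 3 and 2 pathway genes with the agents. A TPM minimum of 5 left 0 members called between controls. The control of the other agent gave 4 of 9 members with desflurane. The share of all genes called was not computed at these ratios, this TPM minimum or against the other control. These counts therefore have no background. The median change of members with sevoflurane was -0.85 with a pseudocount of 0.1 and -0.37 against the other control, and that with desflurane was -0.20 after scaling, -0.64 against the other control and -0.45 over the 9 expressed members. In the limma fit, the count of 2 members became 1 with a pseudocount of 0.1, a minimum mean TPM of 5, no agent term, scaling or no trend, and 0 of 10 without the filter on low values, where 25 of 13629 genes were called and 5 members had an unadjusted p under 0.05. Over these alternatives the adjusted p of *Mx1* was between 0.0552 and 0.310 where it was lost. Leaving out each library in turn, which also removed the agent term, gave between 0 (without sevoflurane 0 h) and 3 members (without desflurane 6 h), against 1 without the agent term alone, and then *Ifit3* turned to 0.031 (without sevoflurane 0 h) or 0.019 (without sevoflurane 6 h) and *Rsad2* to -0.029 (without sevoflurane 6 h) over both agents. These fits assume that a lone library varies like the others. In 47 further pairs of result and setting, a count stayed within 1.5 times the reported one, though not always equal to it (members called with sevoflurane were 2 at a TPM minimum of 5 and 4 after scaling or with FPKM), or a median moved by less than the SD of its level between the 2 controls. The causes were not tested. No paired analysis was possible because the labels give no replicate numbers, and agent was the block. Depth limits *Ifit1* and *Oasl*.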
